A study of Homo sapiens with 6 samples.

Results

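The genes of the translation initiation and elongation factors were compared between human cells transfected with the small interfering RNA (siRNA) si-SNHG17-1 and cells transfected with the control siRNA si-NC. Genes were taken by symbol: the EIF1 to EIF6 families, the EEF1 and EEF2 families, the eIF4E-binding proteins and PABPC1, without the EIF2AK kinases and EEF1E1. This found 120 of the 58243 genes in the count table. Of these, 58 are annotated as protein-coding and 62 as pseudogenes of the same factors. Each group had 3 RNA-sequencing libraries of total RNA, and the cells are labelled Hep3B, a line from a human hepatocellular carcinoma. All cells were grown in serum-supplemented DMEM, and the groups differ by the transfected siRNA. The labels name 1 siRNA against SNHG17, a noncoding host gene of small nucleolar RNAs. Lowering of SNHG17 and other effects of that siRNA therefore cannot be told apart. Whether the libraries came from separate cultures is not stated, and p-values therefore reflect the spread between libraries alone, which may be technical.

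Initiation factors bring the initiator tRNA and the mRNA to the small ribosomal subunit, scan to the start codon and let the large subunit join. Elongation factors then deliver each aminoacyl-tRNA (eEF1) and move the ribosome along the mRNA (eEF2), while eIF5A relieves stalls in peptide bond formation. In liver cancer and other tumours these factors lie downstream of mTORC1, which acts on eIF4E through its binding proteins and on the kinase of eEF2, and of the stress kinases that phosphorylate the alpha subunit of eIF2. Many elongation factor mRNAs start with a terminal oligopyrimidine (TOP) tract, which ties their translation to mTORC1. The counts measured here are RNA levels, and neither translation nor protein was measured.

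Total counts per library ranged from 30207055 to 42271168, and 3 counts in a library corresponded to between 0.0712 and 0.0977 CPM (library counts scaled to a common size), a limit of counting error only. SNHG17 stood at 843, 953 and 948 counts in si-NC against at 307, 338 and 254 in si-SNHG17-1, which left 35.2% of its control CPM. Its log2 fold change, the log2 ratio of si-SNHG17-1 to si-NC, was −1.51 ± 0.12 (SE), with an adjusted p of 0.00101 by the edgeR quasi-likelihood test and p = 0.1 in a two-sided exact permutation test, the smallest that 3 against 3 libraries allow. Of 10 hepatocyte and hepatoma markers, 9 were under 1 CPM in every library, and TTR and GPC3 were at 0 in all 6, so the hepatic identity in the label was not seen in these counts. The summed CPM of 7 epithelial markers, mostly KRT8 and KRT18, was 835 to 948 in si-NC against 743 to 758 in si-SNHG17-1. Of these 7, 4 were under 1 CPM in every library (EPCAM, CDH1, KRT19 and KRT5). That of 6 fibroblast markers, mostly COL1A1, COL3A1 and LUM with COL1A2 at 0, was 180 to 196 against 247 to 261. That of 5 leukocyte markers, mostly CD68 with the other 4 under 1 CPM, was 32.7 to 38.9 against 42.7 to 61.5. The part of these marker differences in the results below was not tested.

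Most translation factor genes had lower RNA values in si-SNHG17-1 than in si-NC, by small amounts, and 10 of them were called lower. The largest called fall was that of EIF5A, by 1.65-fold, followed by those of EIF4E, EIF3E and EIF4EBP1. The only factor called higher was EEF1A2, the tissue-restricted form of elongation factor eEF1A, by 1.25-fold. A gene was called at a Benjamini-Hochberg adjusted p under 0.05 in edgeR's quasi-likelihood test over 18679 genes, and 64 factor genes, 55 of them protein-coding, had enough counts to be tested. The 10 lower calls were 15.6% of the 64, where 5.21% of all genes tested were called lower. The 1 higher call was 1.56%, where 5.25% of all genes tested were called higher. Among the 64, 50 had a negative log2 fold change, with a median of −0.21 beside −0.00 over all genes tested. In 26 of the 64 (40.6%) all 3 si-SNHG17-1 libraries lay below all 3 si-NC libraries, which was so for 17.3% of all genes. The opposite order was seen in 1, where it held for 16.4% of all genes.

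The comparison was repeated over protein-coding genes with at least 10 CPM in si-NC. There the 54 factors had a median log2 fold change of −0.21 and all 9980 such genes had −0.03, while 18.5% and 8.36% were called lower. The count of lower calls among factors moved with single libraries and with scaling, as did the share of all genes called lower. Leaving out si-NC replicate 2 gave 5 lower factors (7.69%, where 2.98% of all genes were lower). Leaving out replicate 1 of si-SNHG17-1 gave 2 (3.12% beside 1.36%), replicate 2 gave 4 (6.15% beside 1.89%) and replicate 3 gave 2 (3.12% beside 1.72%). Scaling by total counts gave 6 (9.38% beside 4.18%), as did using no filter on low counts (7.32% beside 2.08%). EIF5A and EIF3E were the 2 calls that held with each library left out in turn. These are libraries of bulk RNA, in which fewer cells of a type and less RNA per cell cannot be told apart. Exons of many factors, among the called ones EIF5A, EIF2S1, EIF4E, EEF1B2 and EEF2K, share bases with other annotated genes, and their counts are uncertain to that extent. Together the 120 genes took 2.35% ± 0.115 of all counts in si-NC against 2.06% ± 0.0506 in si-SNHG17-1 (SD, n = 3 each). The share was 2.23 to 2.46% in the si-NC libraries and 2.02 to 2.11% in the si-SNHG17-1 libraries, with no overlap. EEF1A1 alone made up 0.719% ± 0.128 and 0.540% ± 0.0375 of all counts, and the other members together 1.63% ± 0.0455 and 1.51% ± 0.0151.

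**Figure D1:**
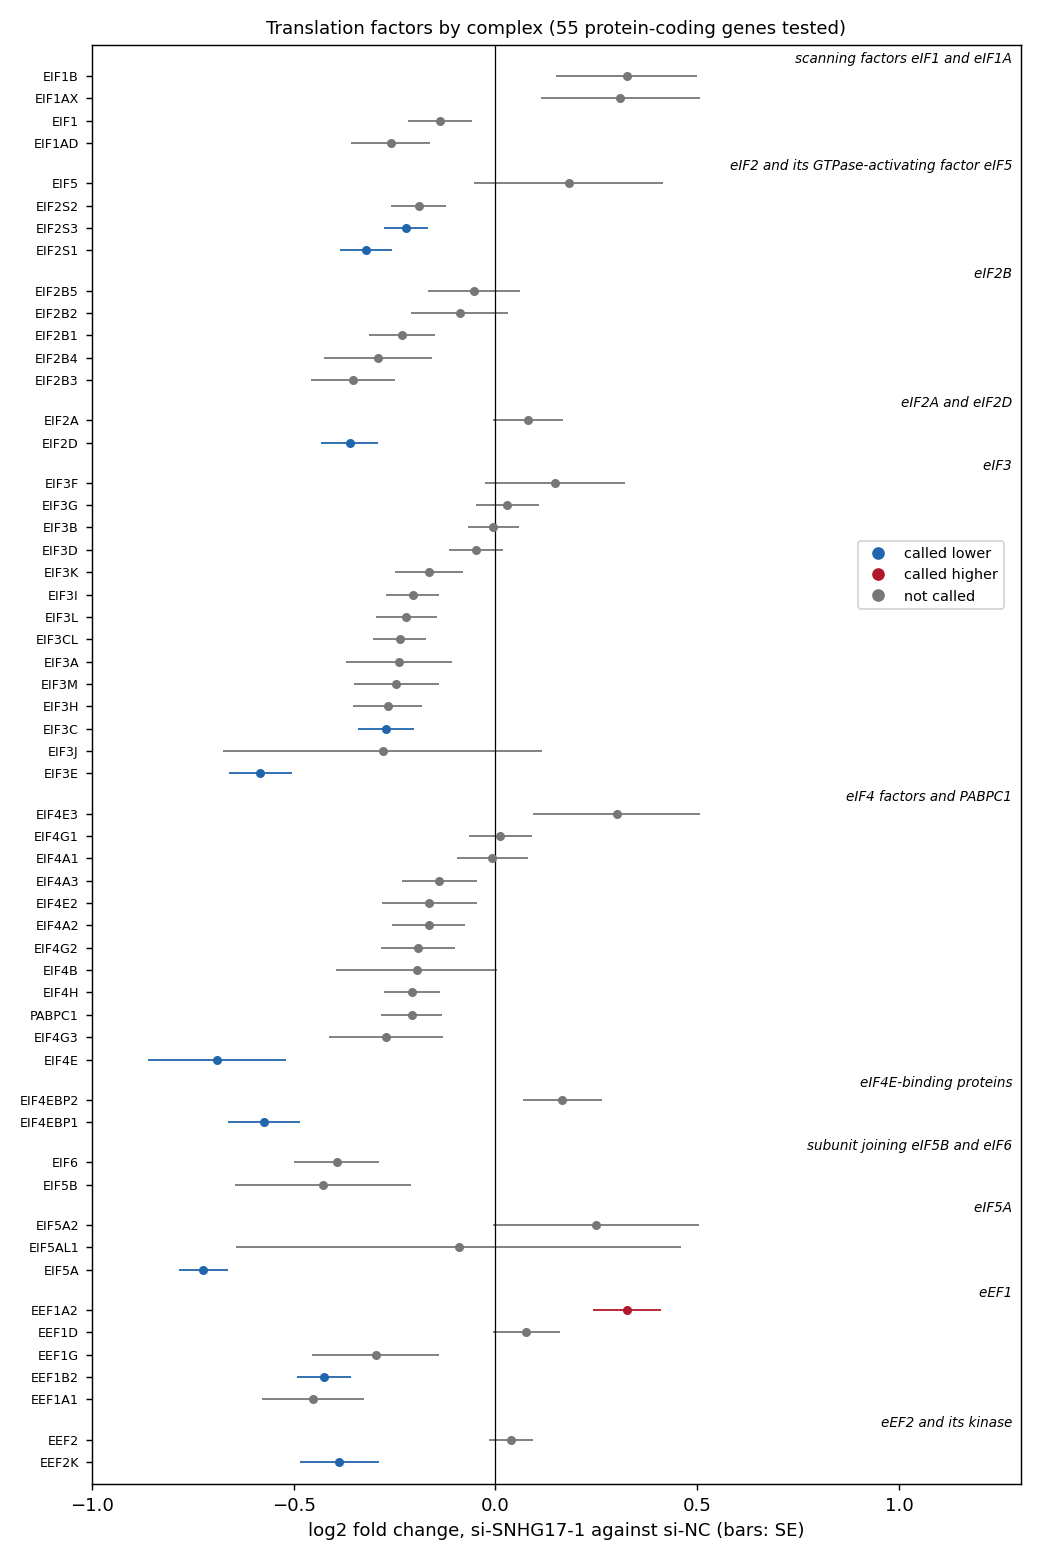
Log2 fold change of si-SNHG17-1 against si-NC for the 55 protein-coding factors tested, grouped by complex, with bars of 1 SE to each side. Blue points are the 10 genes called lower, the red point is EEF1A2, called higher, and grey points were not called. Most points lie left of 0.

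**Figure D2:**
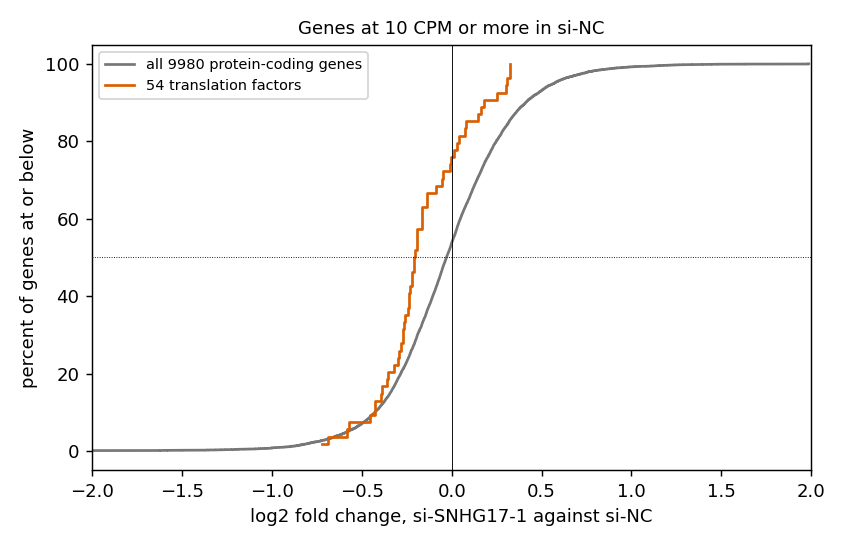
Percent of genes (y axis) at or below each log2 fold change (x axis) for protein-coding genes with at least 10 CPM in si-NC. The orange line of the 54 factors crosses 50% at −0.21 and the grey line of all 9980 genes at −0.03.

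The mRNA starts of the factors were read to see which of these genes share the TOP sequence or other promoter letters. RefSeq start sites and their promoters (GRCh38.p14) were found for 44 of the 55 protein-coding genes tested. These held 8 of the 10 genes called lower. EIF3E, EIF4EBP1 and EEF1A2 had no promoter to search. A TOP-like start, a C at the start site with 4 more pyrimidines after it on the gene's strand, was present in 11 of the 44 (25%) and in 4.04% of 27305 promoters. The word CACGTG, the E-box bound by MYC and related factors, lay in the 250 bases before the start in 11 of the 44 (25%) and in 6.49% of all promoters. The other words were searched on both strands of the same 250 bases, without regard to overlap between them. GGGCGG was found in 68.2% of the factors and 42.3% of all promoters, CCGGAAGT in 13.6% and 3.64%, CCAAT in 38.6% and 33%, and TATAAA in 4.55% and 11.1%. The 27305 promoters were not limited to protein-coding or tested genes, as the 44 were. The shares are therefore not matched for gene type or expression. A match says only that these letters are present. The starts of the most abundant factors and of the called ones with a TOP-like start are shown with the first 5 transcribed bases in capitals. In order they lie at chr6:73521028-73521057 (minus strand), chr19:3985459-3985488 (minus), chr1:206612461-206612490 (minus), chrX:24054931-24054960 (plus) and chr12:53006431-53006460 (plus).
EEF1A1: aagtgcagtagtcgccgtgaacgttCTTTT
EEF2: aaagctgagtgttgacgtcagcgttCTCTT
EIF2D: gcgcggccctggtttccagccgggcCCTTT
EIF2S3: ggcggcagccggggtgatttccttcCTCTT
EIF4B: aatcacgtgattgcctcatccgggtCTTTT
Of the 8 called genes searched, 2 had an E-box, shown in capitals in the next windows. They lie at chr4:98929341-98929370 and chr4:98929188-98929217 (both minus strand, with the word starting 225 and 72 bases before the start) and chr16:22206207-22206236 (plus strand, 59 bases before it).
EIF4E upper: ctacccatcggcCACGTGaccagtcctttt
EIF4E lower: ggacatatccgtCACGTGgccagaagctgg
EEF2K: cctgggggcggcCACGTGagcgccacgccg

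Log2 fold changes were then compared by start feature. The 11 genes with a TOP-like start had a median log2 fold change of −0.17, from −0.45 to 0.15, and 2 were called lower (EIF2D and EIF2S3). The 33 without it had a median of −0.21 and 6 lower calls. Over all genes tested, 5.21% were called lower. One start per gene was read, and the 33 include EEF1B2 and EEF1G, which the list below counts as TOP mRNAs. The 11 genes with an E-box had a median of −0.16 and 2 lower calls, and the 33 without an E-box had −0.21 and 6. By a list of factors drawn up as TOP mRNAs (EEF1A1, EEF1A2, EEF1B2, EEF1D, EEF1G, EEF2, EIF3E, EIF3F, EIF3H, EIF4B and PABPC1), 2 of 11 were called lower, EEF1B2 and EIF3E, and 1 higher, EEF1A2, with a median of −0.21. These calls were 18.2% and 9.09%, where 5.21% and 5.25% of all genes tested were called lower and higher. These differences in medians were not tested.

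The 3′ untranslated regions were searched for a short word that was more frequent among genes called lower in these data. As the word comes from these same data, its higher share among genes called lower is no test. The sequence of si-SNHG17-1 is not given in the sources used here, so no match to the siRNA itself was made. In the longest annotated 3′ untranslated region of each gene (GENCODE release 29), TCAATC was present in 19.4% of 13641 genes, in 30.5% of the 880 of them called lower, and in 11 of 55 factors (20%). It was present in 3 of the 10 factors called lower. The longer TCAATCA was in 8.14% of genes, in 17.6% of those called lower and in 2 of 55 factors (3.64%), neither of them called. TTCAATCA was in 2.84% of genes, 8.3% of those called lower and none of the 55 factors. The regions were shorter in the factors, with a median of 875 bases against 1311 over all genes searched. Their length among all genes called lower was not compared.

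The scanning factors, grouped with the eIF1A domain protein EIF1AD, had no called member among 4 tested. By edgeR only EIF1AD was lower at an unadjusted p under 0.05, as were 13.7% of all genes tested. None was higher, where 13.1% of all genes were. In this list neither DESeq2 nor limma-voom called any. EIF1AX, the eIF1A that with eIF1 opens the small subunit for scanning, was the most abundant, at 106, 186 and 176 CPM in si-NC against 207, 179 and 194 in si-SNHG17-1. The groups overlapped, with si-NC replicate 1 alone far below the rest (log2 fold change 0.31 ± 0.20, adjusted p = 0.369). EIF1B, a close relative of EIF1, had 37.0 ± 8.80 and 46.3 ± 1.83 CPM (0.32 ± 0.17, adjusted p = 0.284). EIF1 itself, which guards start codon choice, had 118 ± 7.85 and 107 ± 2.77 CPM, and EIF1AD, an eIF1A domain protein, 43.9 ± 0.901 and 36.7 ± 2.67 CPM (SD, n = 3 each). Both were without overlap between groups, and neither was called (adjusted p of 0.317 and 0.138).

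The factor that carries the initiator tRNA, eIF2, was lower in its alpha and gamma subunits. EIF2S1 (alpha, the subunit the stress kinases phosphorylate; ENSG00000134001.12, chr14:67359997-67386516, plus strand) had 240, 238 and 224 CPM in si-NC against 188, 189 and 185 in si-SNHG17-1. Every si-SNHG17-1 library lay below every si-NC library. EIF2S1 fell by 1.25-fold (log2 fold change −0.32 ± 0.06, adjusted p = 0.0226). EIF2S3 (gamma, the GTPase subunit; ENSG00000130741.10, chrX:24054716-24077971, plus strand, with the TOP-like start shown above) had 871, 862 and 822 CPM in si-NC against 751, 705 and 735 in si-SNHG17-1, again without overlap. It fell by 1.17-fold (−0.22 ± 0.06, adjusted p = 0.0452). EIF2S2, the beta subunit, had 297 ± 16.8 and 260 ± 2.67 CPM and did not overlap, with a log2 fold change of −0.19 ± 0.07 and an adjusted p of 0.117. EIF5, which triggers GTP hydrolysis by eIF2, ranged from 144 to 277 CPM in si-SNHG17-1 and from 162 to 220 in si-NC (0.18 ± 0.23, adjusted p = 0.685). The EIF2S1 call was lost without si-NC replicate 2 (adjusted p = 0.0619), si-SNHG17-1 replicate 1 (0.101), replicate 2 (0.0825) or replicate 3 (0.0899), and its exons overlap those of ATP6V1D on the other strand. The EIF2S3 call was lost without any of the 6 libraries (adjusted p of 0.0587 to 0.160), with total-count scaling (0.0807), with no filter (0.119) and in DESeq2 (0.0956).

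eIF2B, which reloads eIF2 with GTP, had 5 genes tested and none called, and each of the 5 log2 fold changes was negative. By edgeR 2 of the 5 were lower at an unadjusted p under 0.05 (13.7% of all genes were) and none higher. DESeq2 called 1 lower, where it called 7.96% of all genes lower, and limma-voom called 0. EIF2B1, the alpha subunit and the most abundant, had 96.9, 93.8 and 99.2 CPM in si-NC against 87.1, 83.7 and 76.3 in si-SNHG17-1, without overlap (−0.23 ± 0.08, adjusted p = 0.117). EIF2B3, the gamma subunit of the catalytic part, had 40.4 ± 2.75 and 31.7 ± 1.84 CPM, also without overlap. Its log2 fold change of −0.35 ± 0.10 had an adjusted p of 0.0738 in edgeR and 0.0498 in DESeq2. EIF2B4 (delta, −0.29), EIF2B2 (beta, −0.09) and EIF2B5 (the catalytic epsilon subunit, −0.05) overlapped between groups. The last 2 turned positive in some fits with a library left out, EIF2B2 without si-NC replicate 2 (0.01) and EIF2B5 when either si-NC replicate 1 (0.02) or replicate 2 of si-SNHG17-1 (0.03) was left out.

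Of the factors that can bring tRNA to the ribosome without eIF2, EIF2D fell and EIF2A was not called. EIF2D (ENSG00000143486.15, chr1:206571292-206612463, minus strand), also known for recycling ribosomes, had 100, 104 and 99.1 CPM in si-NC against 79.7, 77.8 and 78.4 in si-SNHG17-1. The libraries within each group lay within a few CPM of each other and the groups were well apart. EIF2D fell by 1.28-fold (−0.36 ± 0.07, adjusted p = 0.0210). EIF2A had 85.0, 89.7 and 76.9 CPM in si-NC against 92.6, 86.7 and 86.6 in si-SNHG17-1, with overlap (0.08 ± 0.09, adjusted p = 0.621). The EIF2D call was lost without si-NC replicate 2 (adjusted p = 0.0577), si-SNHG17-1 replicate 1 (0.0895), replicate 2 (0.0881) or replicate 3 (0.0881).

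eIF3, the largest initiation complex and the platform that holds the mRNA to the small subunit, had 2 of 14 genes called lower, EIF3E and EIF3C. The 2 calls were 14.3% of the 14, where 5.21% of all genes tested were called lower. All 14 were tested, 12 had a negative log2 fold change, and the median was −0.23. In 7 of the 14 (50%) no si-SNHG17-1 library reached the lowest si-NC library, which was so for 17.3% of all genes. EIF3C and EIF3CL, which share reads, each count among the 14. The complex took 0.336% ± 0.00797 of all counts in si-NC against 0.300% ± 0.00535 in si-SNHG17-1. EIF3E, a core subunit also known as INT6 (ENSG00000104408.9, chr8:108201216-108435333, minus strand), had 289, 285 and 258 CPM in si-NC. In si-SNHG17-1 it had 186, 174 and 195 CPM, far below the lowest si-NC library. EIF3E fell from 277 ± 16.6 to 185 ± 10.3 CPM (log2 fold change −0.58 ± 0.08, adjusted p = 0.00557), a call that held with each library left out (adjusted p at most 0.0368).

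EIF3E was also read against its partners within each library, from the same counts that gave its call. Against the median count of the other eIF3 genes, its log2 ratio was 0.19, 0.22 and 0.18 in si-NC against −0.16, −0.34 and −0.07 in si-SNHG17-1. No other eIF3 gene was lower by this ratio without overlap. EIF3B, EIF3D, EIF3G and EIF3K were higher by it without overlap, EIF3D for example at −0.27 ± 0.08 in si-NC against 0.01 ± 0.04 in si-SNHG17-1. In CPM none of these rose without overlap. EIF3K was lower without overlap (log2 fold change −0.16), and EIF3B (−0.01), EIF3D (−0.05) and EIF3G (0.03) overlapped. The ratio is therefore no separate support for the EIF3E call, and its share over other genes was not computed. These ratios are between gene counts, not per length, so only their change between groups can be read.

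EIF3C, a core subunit, and its near-identical copy EIF3CL share reads that counting cannot assign with certainty. EIF3C (ENSG00000184110.14, chr16:28688558-28735730, plus strand) had 304, 308 and 288 CPM in si-NC against 247, 263 and 236 in si-SNHG17-1, a fall of 1.21-fold (−0.27 ± 0.07, adjusted p = 0.0490). EIF3CL had 430 ± 8.92 and 365 ± 21.7 CPM (−0.24 ± 0.07, adjusted p = 0.0630). With both counts summed into 1 gene the log2 fold change was −0.25, with an adjusted p of 0.0448. The EIF3C call alone was lost without any of the 6 libraries (adjusted p of 0.0724 to 0.184), with median-of-ratios size factors (0.0525), total-count scaling (0.0772), no filter (0.109), a filter of 1 CPM (0.0502) and DESeq2 (0.0548), and was kept by limma-voom (0.0436).

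The other 11 eIF3 genes were not called. EIF3A, the scaffold subunit with the highest mean CPM of these 11 in si-NC, had 549, 407 and 382 CPM in si-NC against 375, 370 and 389 in si-SNHG17-1. Its si-NC replicate 1 stood well above the rest. EIF3I, a WD-repeat subunit and the most abundant of these 11 per kilobase of exon (148 CPM per kb in si-NC), had 255, 244 and 265 CPM against 213, 227 and 223, without overlap (−0.21 ± 0.07, adjusted p = 0.0965). EIF3H (−0.27), EIF3L (−0.22) and EIF3K (−0.16) likewise did not overlap, and EIF3M (−0.25) did. EIF3J, the loosely bound subunit, varied most between libraries, at 45.8, 165 and 99.9 CPM in si-NC against 101, 78.4 and 76.5 in si-SNHG17-1. EIF3D (−0.05), EIF3B (−0.01), EIF3G (0.03) and EIF3F (0.15) overlapped, and the sign of EIF3B turned with total-count scaling (0.04) and with a filter of 1 CPM (0.01).

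**Figure D3:**
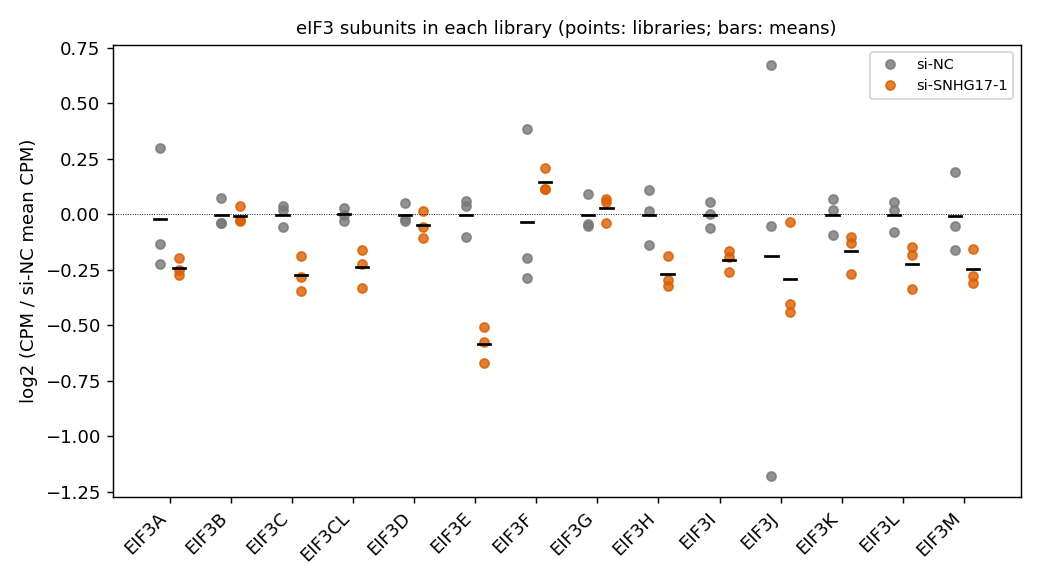
Log2 ratio of each library's CPM to the si-NC mean (y axis) for the 14 eIF3 genes, with 3 si-NC libraries in grey, 3 si-SNHG17-1 libraries in orange and bars at the group means. EIF3E has the lowest si-SNHG17-1 mean, and EIF3J has the widest spread in si-NC.

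The cap-binding and helicase factors of eIF4, with PABPC1, had 12 genes tested and 1 called, EIF4E, the protein that binds the mRNA cap. That was 8.33% of them called lower, beside 5.21% of all genes tested. EIF4E (ENSG00000151247.12, chr4:98871684-98930637, minus strand) had 75.2, 60.0 and 48.7 CPM in si-NC against 35.9, 34.9 and 43.2 in si-SNHG17-1. The groups did not overlap, but the lowest si-NC library and the highest si-SNHG17-1 library lay close together. EIF4E fell by 1.61-fold (−0.69 ± 0.17, adjusted p = 0.0441). The call held without si-NC replicate 3 (0.0318) and was lost without si-NC replicate 1 (0.0785) or replicate 2 (0.0886), and without si-SNHG17-1 replicate 1 (0.140), replicate 2 (0.137) or replicate 3 (0.0799). It was also lost with total-count scaling (0.0542) and with no filter (0.0533), and the gene's exons overlap those of TBCAP3 and AC019131.1.

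The other 11 genes were not called. EIF4G1, the scaffold that joins cap and helicase, had 719, 700 and 604 CPM in si-NC against 696, 694 and 650 in si-SNHG17-1, which gave a log2 fold change of 0.01 ± 0.08 that turned to −0.06 without si-NC replicate 3. EIF4A1, the main helicase, had 261 ± 17.8 and 260 ± 22.4 CPM (−0.01 ± 0.09, and 0.03 with total-count scaling). EIF4A1 shares exon bases with SENP3-EIF4A1 and AC016876.2 on the same strand, so its counts are uncertain to that extent. EIF4B, a helper of that helicase with the highest CPM of these genes, had 800, 1080 and 1083 CPM in si-NC against 1143, 730 and 715 in si-SNHG17-1. In both groups replicate 1 stood apart from the other two, on opposite sides. EIF4H, the related helper and the most abundant per kilobase (174 CPM per kb in si-NC), had 560, 512 and 591 CPM in si-NC against 484, 490 and 467 in si-SNHG17-1, without overlap (−0.21 ± 0.07, adjusted p = 0.106). PABPC1, the poly(A)-binding protein, had 620 ± 43.3 and 537 ± 32.3 CPM without overlap (−0.21 ± 0.08, adjusted p = 0.127). EIF4A3, the helicase of the exon junction complex, was the remaining gene without overlap (−0.14). EIF4G3 (−0.27), EIF4G2 (−0.19), EIF4A2 (−0.17), EIF4E2 (−0.16) and EIF4E3 (0.30) overlapped between groups.

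EIF4EBP1, which sequesters eIF4E until mTORC1 phosphorylates it, fell by 1.49-fold. The gene (ENSG00000187840.4, chr8:38030341-38060365, plus strand) had 151, 149 and 172 CPM in si-NC against 106, 112 and 99.4 in si-SNHG17-1, without overlap (−0.57 ± 0.09, adjusted p = 0.00982). Its relative EIF4EBP2 had 178, 227 and 200 CPM in si-NC against 218, 234 and 227 in si-SNHG17-1, with overlap (0.17 ± 0.10, adjusted p = 0.332). The count of EIF4EBP1 per 100 counts of EIF4EBP2 was 85.0, 65.4 and 86.2 in si-NC against 48.7, 47.9 and 43.8 in si-SNHG17-1, so every si-SNHG17-1 library had the lower ratio. Per 100 counts of EIF4E, EIF4EBP1 stood at 268 ± 78.8 and 282 ± 46.9, and the groups overlapped. The EIF4EBP1 call was lost without si-SNHG17-1 replicate 1 (0.0592) or replicate 3 (0.0516).

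EIF5B, the GTPase that joins the ribosomal subunits, and EIF6, which keeps the large subunit apart until it is mature, were both tested and not called by edgeR, with 1 lower at an unadjusted p under 0.05 (13.7% of all genes were) and none higher. EIF6 had 136, 142 and 175 CPM in si-NC against 112, 116 and 118 in si-SNHG17-1, without overlap (−0.39 ± 0.11, adjusted p = 0.0557). DESeq2 called it (0.0223), and edgeR did without si-NC replicate 1 (0.0455). Limma-voom called neither gene. EIF5B had 197, 129 and 108 CPM in si-NC against 98.3, 99.9 and 124 in si-SNHG17-1, with si-NC replicate 1 far above the rest (−0.43 ± 0.22, adjusted p = 0.260).

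EIF5A, which carries the modified amino acid hypusine, showed the largest called change among the factors. The gene (ENSG00000132507.17, chr17:7306999-7312463, plus strand) had 476, 465 and 487 CPM in si-NC against 280, 300 and 284 in si-SNHG17-1. The gap between groups was many times the spread within them. EIF5A fell by 1.65-fold (−0.72 ± 0.06, adjusted p = 0.00137), and the call held in every alternative run, including each library left out (adjusted p at most 0.0159). Its exons share 241 bases with GPS2 on the other strand. EIF5A2, its second form, had 12.3, 26.1 and 18.5 CPM in si-NC against 20.1, 23.4 and 24.2 in si-SNHG17-1, with overlap (0.25 ± 0.26, adjusted p = 0.597). EIF5A2 counts per 100 EIF5A counts were 2.59, 5.60 and 3.79 in si-NC against 7.15, 7.80 and 8.49 in si-SNHG17-1, without overlap. EIF5AL1, a copy of EIF5A, was near the detection limit, at 0.419 ± 0.0632 and 0.395 ± 0.145 CPM.

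**Figure D4:**
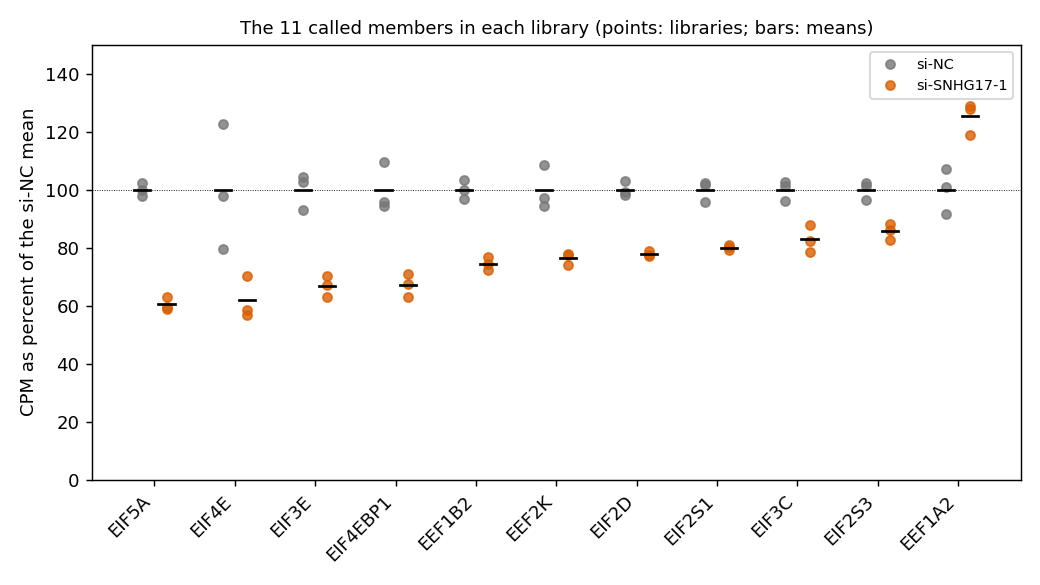
CPM of the 11 called factors in each library as percent of the gene's si-NC mean (y axis from 0), with si-NC in grey, si-SNHG17-1 in orange and bars at the means. EIF5A shows tight groups far apart, EIF4E shows the widest si-NC spread, and EEF1A2 alone lies above 100 in si-SNHG17-1.

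In eEF1, which delivers aminoacyl-tRNA, the exchange factor subunit EEF1B2 fell and the tissue-restricted EEF1A2 rose. EEF1B2 (ENSG00000114942.13, chr2:206159585-206162928, plus strand) had 209, 216 and 223 CPM in si-NC against 161, 166 and 156 in si-SNHG17-1. The groups did not overlap, and the fall was 1.34-fold (−0.42 ± 0.07, adjusted p = 0.0100). EEF1A2 (ENSG00000101210.10, chr20:63488013-63499315, minus strand) had 144, 123 and 135 CPM in si-NC against 159, 173 and 171 in si-SNHG17-1, all above the si-NC libraries. The rise was 1.25-fold (0.33 ± 0.08, adjusted p = 0.0494). The EEF1B2 call was lost without si-SNHG17-1 replicate 1 (0.0654) or replicate 3 (0.0554). The EEF1A2 call held without si-NC replicate 1 (0.0475), and was lost without si-NC replicate 2 (0.110) or replicate 3 (0.103), without si-SNHG17-1 replicate 1 (0.0943), replicate 2 (0.128) or replicate 3 (0.121), and with no filter (0.0675).

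EEF1A1, the common form of eEF1A and by far the most abundant factor (1227 CPM per kb of exon in si-NC, beside 788 for EEF2 and 510 for EEF1G), was not called. It had 8165, 5781 and 7939 CPM in si-NC against 5771, 5127 and 5099 in si-SNHG17-1. The groups did not overlap, but si-NC replicate 2 and si-SNHG17-1 replicate 1 were almost level. The log2 fold change was −0.45 ± 0.13 with an adjusted p of 0.0626 in edgeR, 0.0195 in DESeq2 and 0.00982 in edgeR without si-NC replicate 2. EEF1A2 counts per 100 EEF1A1 counts were 1.76, 2.12 and 1.70 in si-NC against 2.76, 3.37 and 3.36 in si-SNHG17-1, without overlap. EEF1G, a structural subunit, had 1587, 1556 and 1011 CPM in si-NC against 1095, 1146 and 1143 in si-SNHG17-1 (−0.30 ± 0.16, adjusted p = 0.279). Without si-NC replicate 3, the lowest library of that group, its adjusted p was 0.0107, and nearly all of its exon bases are shared with AP002990.1. EEF1D, the second exchange factor, had 144 ± 9.73 and 152 ± 8.31 CPM (0.08 ± 0.08, adjusted p = 0.617). EEF1D counts per 100 EEF1B2 counts were 68.9, 62.1 and 68.8 in si-NC against 92.3, 87.7 and 103 in si-SNHG17-1, without overlap.

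EEF2, the translocation factor, was not called, and EEF2K, the kinase that inhibits it, fell. EEF2 had 3237, 3111 and 3175 CPM in si-NC against 3047, 3468 and 3267 in si-SNHG17-1, with overlap (0.04 ± 0.06, adjusted p = 0.716). EEF2K (ENSG00000103319.11, chr16:22206282-22288732, plus strand) had 44.6, 51.2 and 45.8 CPM in si-NC against 35.0, 36.5 and 36.7 in si-SNHG17-1. It did not overlap and fell by 1.31-fold (−0.39 ± 0.10, adjusted p = 0.0470). The EEF2K call was lost without any of the 6 libraries (adjusted p of 0.0574 to 0.177), with total-count scaling (0.0665) and with no filter (0.0826).

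**Figure D5:**
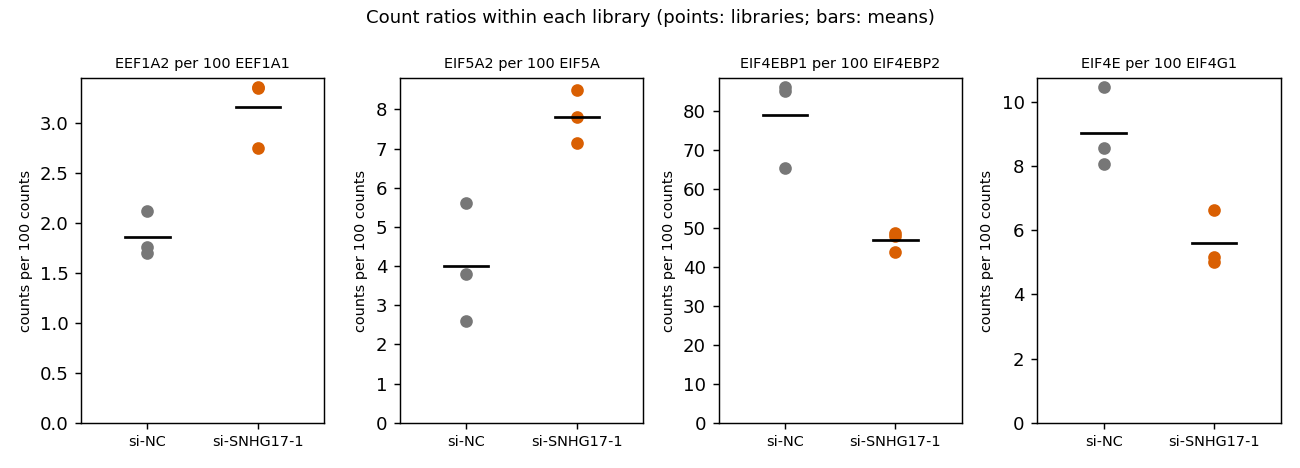
Ratios of counts of paired factors within each library (y axes from 0, counts of the first gene per 100 counts of the second), with si-NC in grey, si-SNHG17-1 in orange and bars at the means. EEF1A2 to EEF1A1 and EIF5A2 to EIF5A are higher, and EIF4EBP1 to EIF4EBP2 and EIF4E to EIF4G1 lower, in si-SNHG17-1, without overlap between groups.

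Among ratios between partner genes, which do not depend on how the libraries are scaled, several did not overlap between groups. EIF4E counts per 100 EIF4G1 counts were 10.5, 8.57 and 8.06 in si-NC against 5.16, 5.02 and 6.64 in si-SNHG17-1. EIF1B per 100 EIF1 was 23.4, 40.3 and 30.8 against 42.5, 45.8 and 41.3. EIF4A2 per 100 EIF4A1 was 71.5 ± 2.25 and 64.4 ± 7.33, EEF2K per 100 EEF2 was 1.49 ± 0.141 and 1.11 ± 0.0498, and EIF2S1 per 100 EIF2S3 was 27.5 ± 0.163 and 25.7 ± 0.993 (SD, n = 3 each). Of the 10 such ratios computed, 9 did not overlap, and EIF4EBP1 to EIF4E did. The pairs were chosen with the single-gene values known, so no test is given. Ratios of other gene pairs were not computed, so this count has no share over all pairs beside it. The ratios use the same counts as the single-gene values and in part restate them.

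The 62 pseudogenes that the symbols also match contributed little. Of these, 9 were tested, with at most 3.86 CPM in si-NC, and none was called by edgeR, DESeq2 or limma-voom, or passed an unadjusted p under 0.05. The highest, EIF4HP1, had 3.32, 2.99 and 5.27 CPM in si-NC against 3.04, 2.61 and 2.02 in si-SNHG17-1, with overlap. EIF4HP2, the lowest by log2 fold change (−1.12 ± 0.56), was the only 1 without overlap. The other 7 were EIF1P4 (−1.03), EIF2S2P4 (−0.47), EIF5AP4 (−0.42), EIF3EP1 (−0.24), EIF4BP3 (−0.11), EIF4BP7 (−0.00) and EIF4BP6 (0.12). The 56 members that were not tested had at most 18 counts in any library, and 38 had 0 counts in all 6. Among them were 3 protein-coding genes, including EIF4E1B, an eIF4E relative known from oocytes, and EIF4EBP3.

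The list of mTORC1 signalling to translation, which also holds targets such as RPS6 and the eIF4E kinases MKNK1 and MKNK2, had 22 genes tested. Of these, 2 were called higher and 2 lower (9.09% each, where 5.25% and 5.21% of all genes were). The median log2 fold change was −0.14. RPTOR, the mTORC1 subunit that recruits substrates such as EIF4EBP1, had 136, 118 and 125 CPM in si-NC against 73.5, 78.3 and 73.5 in si-SNHG17-1. It fell by 1.68-fold without overlap (−0.75 ± 0.08, adjusted p = 0.00321). RPS6, the ribosomal protein that the pathway's S6 kinases phosphorylate, fell from 1277 ± 58.1 to 968 ± 26.3 CPM (−0.40 ± 0.06, adjusted p = 0.00657). SESN2, an inhibitor of mTORC1 that senses leucine, rose from 32.4 ± 2.06 to 77.7 ± 5.64 CPM (1.26 ± 0.10, adjusted p = 0.00100). MKNK2, a kinase of eIF4E, had 54.4, 39.8 and 49.5 CPM in si-NC against 74.1, 87.6 and 75.7 in si-SNHG17-1, a rise of 1.65-fold (0.72 ± 0.13, adjusted p = 0.0175). DESeq2 called 2 higher and 3 lower in this list, where it called 8.19% and 7.96% of all genes. The calls of RPTOR, RPS6 and SESN2 held with each library left out. The MKNK2 call was lost when si-NC replicate 3 (0.0520) or any library of si-SNHG17-1 was left out (0.0524, 0.0611 and 0.0508 for replicates 1, 2 and 3).

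The eIF2 alpha kinases, phosphatases and their targets had 2 members called higher and 1 lower among 14 tested, with a median log2 fold change of 0.15. These calls were 14.3% and 7.14%, where 5.25% and 5.21% of all genes tested were called. PPP1R15A, the stress-induced subunit that directs phosphatase to eIF2 alpha, had 96.8, 84.6 and 84.4 CPM in si-NC against 144, 157 and 146 in si-SNHG17-1. It rose by 1.68-fold without overlap (0.75 ± 0.09, adjusted p = 0.00371) and held with each library left out. PPP1R15B, the constitutive counterpart, had 414, 468 and 426 CPM in si-NC against 318, 320 and 334 in si-SNHG17-1. It fell by 1.35-fold (−0.43 ± 0.07, adjusted p = 0.0109). IMPACT, an inhibitor of the kinase GCN2, rose from 30.7 ± 2.50 to 43.2 ± 4.74 CPM (0.49 ± 0.12, adjusted p = 0.0434). The PPP1R15B call was lost without si-SNHG17-1 replicate 1 (0.0731) or replicate 2 (0.0605), and that of IMPACT without any of the 6 libraries (0.0684 to 0.134) and with no filter (0.0606). The count depended on the tool: DESeq2 called 5 higher and 1 lower, and limma-voom 2 and 1. Over all genes DESeq2 called 8.19% higher and 7.96% lower, and limma-voom 5.47% and 5.38%. The largest log2 fold change in the list was that of DDIT3, the stress-induced transcription factor CHOP, named here after its values were seen. DDIT3 had 28.3, 30.9 and 23.3 CPM in si-NC against 83.2, 47.4 and 38.3 in si-SNHG17-1. The groups did not overlap, and replicate 1 of si-SNHG17-1 stood far above the rest (1.03 ± 0.28, adjusted p = 0.0565 in edgeR and 0.000982 in DESeq2).

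No gene was called by edgeR in the remaining lists, in which counts at an unadjusted p under 0.05 are to be read beside 13.1% of all genes higher and 13.7% lower. Among 16 tested initiation helpers and partners of the poly(A)-binding protein, 1 was higher and 2 were lower at that p, DESeq2 called 1 lower (7.96% of all genes were) and limma-voom 0, and the median log2 fold change was −0.10. Their most abundant gene, the helicase DDX3X, had 706 ± 141 and 690 ± 28.2 CPM (−0.03 ± 0.14, which turned to 0.01 with total-count scaling). Among 5 termination and rescue factors none passed an unadjusted p under 0.05 or was called by the other tools, with a median of −0.09. GSPT1, the release factor eRF3a, had 416 ± 26.1 and 390 ± 27.0 CPM. The list of hypusine and diphthamide synthesis and of eEF1A modification had 15 genes tested. It also holds EEFSEC and EEF1E1, which are not enzymes of these modifications. At that p 1 gene was higher and 2 were lower, EEFSEC and METTL13. Neither other tool called any, and the median was −0.10. METTL13, a methyltransferase of eEF1A, had 67.8, 61.5 and 71.9 CPM in si-NC against 56.5, 56.4 and 36.4 in si-SNHG17-1, without overlap (−0.43 ± 0.17, adjusted p = 0.164).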

How the data were processed

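RNA was sequenced from 6 libraries, 3 per group, grouped by their titles. The authors deposited 1 table of raw, whole-number counts with a row per gene. Reads were aligned with HISAT2 to GRCh38, per the submitters' processing notes. Versions, the counting program, annotation release, strand use and siRNA sequences were not given in the sources used here. Overlapping genes and near-identical copies are therefore uncertain. Every row of the table named a gene.

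Groups were tested with edgeR 4.0.16 (R 4.3.3): filterByExpr (minimum count 10, minimum total 15), TMM scaling, quasi-likelihood F test without a replicate block, and Benjamini-Hochberg adjustment over the 18679 genes tested, with a call at an adjusted p under 0.05. SE was computed as |log2 fold change| over the root of F, and CPM values are TMM-scaled (mean ± SD, n = 3), except marker sums, which are per total count. The si-NC libraries held 38245838, 42271168 and 40351473 counts and the si-SNHG17-1 libraries 37789407, 41620321 and 30207055, and floors cover counting error only. Log2 CPM correlated at 0.966 to 0.973 within groups and 0.953 to 0.965 between them. Libraries of the same group differed by more than sampling noise (chi-square over its degrees of freedom 26.5 to 55.2), so none was taken as a copy of another. Each counted as a sample, though this check cannot show that they came from separate cultures.

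Gene types, exon lengths, overlaps and 3′ untranslated regions came from GENCODE release 29, which held 57980 of the 58243 genes by identifier without version and all 120 members. Promoters came from RefSeq (GRCh38.p14). The members, gene lists and tests were chosen with earlier results of these data known. Genes named are every tested member by complex, and from each pathway list at most 2 called genes each way, by smallest adjusted p, or else its most abundant gene. The level of 1 further member is not described. Alternatives were scaling by total counts or by median-of-ratios size factors, no filter, a filter of 1 CPM in 3 libraries, DESeq2 1.42.0, limma-voom (limma 3.58.1), a replicate block and each library left out. Summing EIF3C and EIF3CL was added after seeing the data. Sites of the 3′ untranslated region word in single genes are not reported here.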

Additional observations from a re-analysis of the deposited data

How the results depend on the processing

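The 10 members called lower became 6 with total counts (9.38% of members beside 4.18% of all genes), 6 with no filter beyond a total above 0 (7.32% beside 2.08%) and 2 with a replicate block. They ranged from 2 to 8 with a library left out (3.12 to 12.3%, beside 1.36 to 3.64%). Median-of-ratios size factors and a filter of 1 CPM in 3 libraries gave 9 each, limma-voom and the summed EIF3C and EIF3CL 10 each, and DESeq2 11, of which 8 were among the 10. The 1 member called higher became 0 with no filter and 0 with the replicate block, and 0 to 1 with a library left out. With the replicate block, 1.39% of all genes and 3.12% of members were called lower, and EIF5A and EIF3E were the 2 kept. Same-numbered libraries did not deviate together (correlations of −0.0172, −0.0367 and −0.0153), so the numbers were not taken to pair them.

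With total counts, which moved the median of all genes by 0.04, the median log2 fold change was −0.1664 over tested members, −0.1902 for eIF2B and −0.1883 for eIF3. With a library left out these medians ranged from −0.2237 to −0.1744, −0.2338 to −0.1641 and −0.2324 to −0.1871, and that of eEF1 from −0.3878 to −0.1881. Signs turned for genes that were not called. With total counts EIF3B stood at 0.0351, EIF4A1 at 0.0330, EIF4BP7 at 0.0393 and DDX3X at 0.0072, and with a filter of 1 CPM EIF3B at 0.0064, EIF4A1 at 0.0043 and EIF4BP7 at 0.0117. EIF4BP7 also turned with median-of-ratios size factors (0.0028), no filter (0.0048) and DESeq2 (0.0001). With a library left out the ranges were −0.0001 to 0.4231 for EIF5, −0.1702 to 0.0060 for EIF2B2, −0.1197 to 0.0320 for EIF2B5, −0.0266 to 0.0326 for EIF3B, −0.6356 to 0.2292 for EIF3J, −0.0593 to 0.0735 for EIF4A1, −0.0619 to 0.0595 for EIF4G1, −0.3184 to 0.1814 for EIF5AL1, −0.4744 to 0.0271 for EIF3EP1, −0.1958 to 0.1680 for EIF4BP7 and −0.1835 to 0.1 for DDX3X. Of 1030 values of single genes under an alternative, 916 kept direction and side of the threshold, 78 lost the call, 6 gained it and 30 turned sign. With a library left out fewer libraries entered the fit, and with no filter more genes were adjusted over. The cause of these changes was not tested in any run. Depth limited mainly the pseudogenes and EIF5AL1, which lay within a few CPM of the floor of 3 counts.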
